A study of Homo sapiens with 47 samples.

Results

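PDGFRA, KIT and KDR are 3 receptor tyrosine kinase genes that lie next to each other on chromosome 4 with no other protein-coding gene between them. Their chromatin was followed over a window of 960 kb, from 55.05 to 56.01 Mb of the human genome build hg19. The members were all deposited ATAC-seq and H3K27ac peaks, all H3K9me3 islands and all intervals of the authors' RRR table that overlap this window, whatever their values. They numbered 1126 of 2305813 listed regions, made up of 771 ATAC-seq peaks in 20 libraries, 41 H3K27ac peaks in 4 libraries, 312 H3K9me3 islands in 8 libraries and 2 RRR intervals.

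PDGFRA binds platelet-derived growth factors, KIT binds stem cell factor and KDR binds vascular endothelial growth factor. Each is a membrane receptor that phosphorylates itself when its ligand joins a pair of receptor chains, and each signals through the RAS and PI3K pathways. KIT guides the survival and migration of melanocytes and their precursors, PDGFRA is best known from mesenchymal and glial precursor cells, and KDR is the main VEGF receptor of endothelial cells. Receptor tyrosine kinases are widely discussed in melanoma cells that no longer respond to BRAF inhibitors.

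451Lu and WM983B are human melanoma cell lines, and both were profiled as parental cells and as cells resistant to vemurafenib, an inhibitor of the kinase BRAF. 451Lu was also profiled after over-expression of the AP-1 subunits c-JUN and c-FOS (AP1), with an shRNA that targets p150 (shp150), or with both changes (shp150_AP1). Vector alone served AP1 as control, NT alone served shp150, and the pair of them (vector_NT) served shp150_AP1. ATAC-seq, which marks open chromatin by Tn5 insertion, covered all 10 of these groups with 2 libraries each. H3K27ac, a mark of active promoters and enhancers, had 1 library used here for parental and resistant cells of either line, and H3K9me3, a mark of heterochromatin, had 2 libraries for each of parental, resistant, vector_NT and shp150_AP1 451Lu. Which p150 and hairpin were used, the promoter behind the over-expression, any drug in the medium and whether the derived lines were clones were not given in the sources used here. Replicates are not labelled as separate cultures, and their spread may be technical. The melanoma label was not checked against marker genes, since no gene annotation of hg19 was used here, and the RNA libraries were not analysed here.

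The 451Lu ATAC-seq lists held 79670 to 94550 peaks in parental, resistant, vector_NT and shp150_AP1 cells and 42898 to 56824 in the 4 groups with a single change or its control. The WM983B lists held 129339 to 147988 narrower peaks, with a median width of 170 to 190 bp against 364 to 479 bp in 451Lu. Sequencing depth is unknown for peak lists. A region absent from a list is therefore uncalled, not shown to be closed. Scores are the values of the authors' peak caller. They are set side by side below as listed, and scores of the 2 lines do not share a scale. Within 451Lu the median score of a whole list ran from 7.65 in shp150 replicate 2 to 14.4 in parental replicate 2. Scores of different 451Lu groups are therefore not directly comparable either. The medians were 13.9 and 14.4 in parental and 13.3 and 13.1 in resistant 451Lu. In WM983B more ATAC-seq sites of this window differed by replicate number than by label, as described with that comparison.

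The starts of the 3 genes carried open chromatin in nearly every library. Gene positions in hg19 are approximate, in steps of 10 kb: PDGFRA from 55.09 to 55.17 Mb, KIT from 55.52 to 55.61 Mb and KDR from 55.94 to 56 Mb. PDGFRA and KIT are read towards higher coordinates and KDR towards lower ones, so the starts lie at 55.09, 55.52 and just under 56 Mb. For reference, the 250 bases before each RefSeq start of the 3 genes are printed here in build GRCh38.p14. They were not mapped to hg19, so whether a called site covers these bases was not tested. RefSeq lists 2 starts for PDGFRA. Capitals mark matches to the motifs searched.
PDGFRA, first start (chr4:54229043-54229292, plus strand): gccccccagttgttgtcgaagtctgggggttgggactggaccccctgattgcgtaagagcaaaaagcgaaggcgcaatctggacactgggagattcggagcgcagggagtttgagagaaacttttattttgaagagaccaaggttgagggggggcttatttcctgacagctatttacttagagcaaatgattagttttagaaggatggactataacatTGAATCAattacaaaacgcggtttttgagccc
PDGFRA, second start (chr4:54233710-54233959, plus strand): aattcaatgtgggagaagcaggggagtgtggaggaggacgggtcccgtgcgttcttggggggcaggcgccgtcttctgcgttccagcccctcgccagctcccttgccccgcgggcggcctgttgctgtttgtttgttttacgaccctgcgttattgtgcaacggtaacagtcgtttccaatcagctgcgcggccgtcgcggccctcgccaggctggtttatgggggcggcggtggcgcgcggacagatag
KIT (chr4:54657707-54657956, plus strand): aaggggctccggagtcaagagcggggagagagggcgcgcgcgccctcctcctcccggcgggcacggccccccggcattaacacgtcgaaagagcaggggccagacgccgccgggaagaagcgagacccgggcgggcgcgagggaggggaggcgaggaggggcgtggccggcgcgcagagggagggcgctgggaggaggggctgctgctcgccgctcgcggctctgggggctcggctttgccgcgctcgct
KDR (chr4:55125596-55125845, minus strand): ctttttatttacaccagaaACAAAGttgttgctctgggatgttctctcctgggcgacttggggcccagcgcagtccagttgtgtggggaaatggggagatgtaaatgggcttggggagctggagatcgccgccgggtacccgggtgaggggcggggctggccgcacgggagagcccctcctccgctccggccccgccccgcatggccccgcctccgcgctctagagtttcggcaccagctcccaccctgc

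The motifs were searched on both strands in these promoters, from 250 bases before to 50 bases after each start, and in all 35116 RefSeq promoters of the same length. The AP-1 motif TGANTCA, where N is any base, matched once, 32 bases before the first PDGFRA start, and 7.71% of all promoters held a match. The SOX motif ACAANG matched once, 231 bases before the KDR start, and 35.5% of all promoters held a match. There was no match in the 4 promoters to the E-boxes CACGTG and CATGTG of MITF (in 7.26% and 11.1% of all promoters), to the TEAD motif GGAATG (14%) or to the CTCF core motif (0.0655%). These matches describe letters only. The KIT promoter was the richest in G and C of the 4, at 74.3% with 38 CpG pairs, and the first PDGFRA promoter the poorest, at 47% with 8, beside medians of 58.7% and 14 over all promoters.

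At PDGFRA, which encodes the receptor for platelet-derived growth factors, 2 sites lay in the step of the gene start, and both were called in all 20 libraries. The site at chr4:55093361-55094626 had scores of 35.3 and 41.7 in the parental and 32.8 and 29.8 in the resistant 451Lu libraries. Over the 16 libraries of 451Lu its scores had a median of 20.8 and a range of 11.4 to 41.7, and over the 4 of WM983B a median of 10.1 and a range of 5.30 to 11.4. The site at chr4:55099132-55100845 had scores of 40.2 and 39.5 in parental, 38.0 and 30.5 in resistant 451Lu, 18.2 and 18.1 in parental and 24.9 and 29.3 in resistant WM983B. Parental scores were the higher at both sites in 451Lu, and resistant scores were the higher at both in WM983B, without overlap.

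At KIT, the receptor for stem cell factor, the site at the gene start, chr4:55524163-55525320, was called in 19 of 20 libraries. Its scores were 12.4 and 14.5 in the parental and 13.2 and 16.2 in the resistant 451Lu libraries, which overlap. The other 451Lu groups gave 11.8 and 10.3 in vector_NT, 21.2 and 12.1 in shp150_AP1, 10.7 and 6.56 in vector, 9.60 and 6.75 in AP1, 5.91 and 5.51 in shp150 and 10.7 in NT replicate 1. NT replicate 2 was the library without a call. In WM983B the scores were 4.91 and 11.2 in parental and 6.38 and 18.0 in resistant cells, so the second replicate was the higher in either group.

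At KDR, the VEGF receptor of endothelial cells, the site at the gene start, chr4:55991023-55992193, was called in 19 of 20 libraries with low scores. They were 13.9 and 8.0 in parental and 9.3 and 6.2 in resistant 451Lu, and ranged from 5.25 to 18.6 with a median of 8.08 over the 16 libraries of 451Lu. In WM983B parental replicate 1 had no call, and the other 3 libraries scored 7.20 to 10.7. No H3K27ac peak lay in the KDR segment in any of the 4 libraries. Over the 20 libraries, the starts of KIT and PDGFRA were both called or both uncalled in 19. For KDR and PDGFRA this held in 19, and for KDR and KIT in 18. The PDGFRA start entered this count with the site at chr4:55093361-55094626, called in all 20. Its pairs thus restate the call counts of KIT and KDR, which lacked a call in different libraries. These counts do not measure likeness of pattern.

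The window held 88 ATAC-seq sites when the lists of all 20 libraries were merged. Of these, 54 were called in both cell lines, 20 in 451Lu only and 14 in WM983B only. No site was called in all 16 libraries of 451Lu and in none of WM983B, or in all 4 of WM983B and in none of 451Lu. 11 sites were called in all 20 libraries and 15 in 19 or 20, and 18 were called in a single library. Of these 15 sites, 11 lay outside the 3 gene segments: 1 before PDGFRA, 5 between PDGFRA and KIT, and 5 between KIT and KDR. The same shares over all 208946 merged sites were not computed here. These counts therefore do not show whether the window is unusual. The 5 sites that came first by libraries and then by smallest score were chr4:55408854-55409781, chr4:55612116-55613054, chr4:55874234-55875250, the second PDGFRA site and chr4:55305992-55307165.

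Among them, chr4:55408854-55409781 lies between PDGFRA and KIT and scored 60.6 to 85.8 in parental and resistant 451Lu, 20.8 to 43.6 in the single-change groups and their controls, and 18.1 to 28.0 in WM983B. Another, chr4:55612116-55613054, lies just past the KIT segment, at its 3′ side. It scored 84.5 and 85.7 in parental, 82.9 and 67.5 in resistant, 84.9 and 72.2 in vector_NT and 59.3 and 82.2 in shp150_AP1 cells. The highest score of the window, 102.3, belonged to chr4:55199699-55200399 in 451Lu parental replicate 2, where WM983B scored 4.87 to 16.7.

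**Figure D1:**
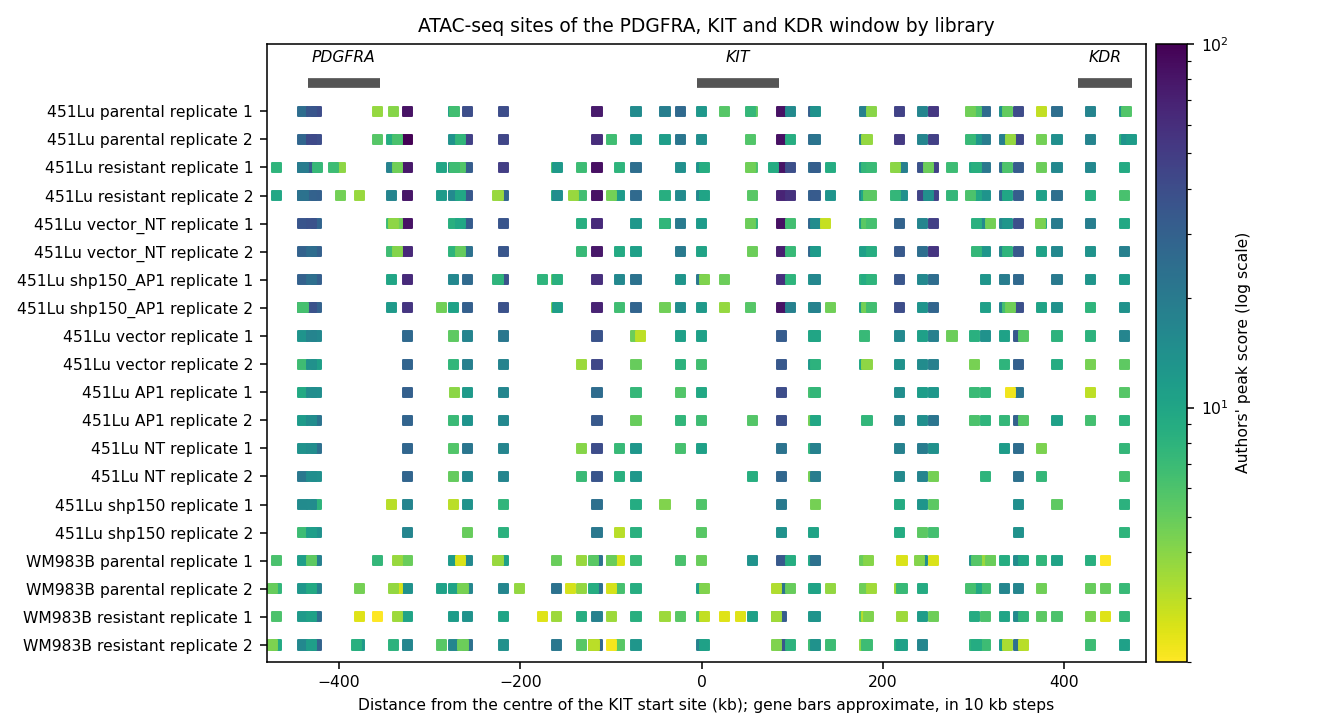
ATAC-seq sites of the window in the 20 libraries (rows), by distance in kb from the centre of the KIT start site, with colour giving the authors' peak score on a log scale. Grey bars mark the approximate gene segments. The 11 sites called in all 20 libraries form the unbroken columns, and the rows of resistant 451Lu hold 57 and 56 peaks against 40 and 41 in parental cells.

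The comparison of resistant with parental cells asks which sites differ once 451Lu cells resist vemurafenib. In this window the resistant lists held more peaks, 57 and 56 against 40 and 41, without overlap between the groups, while the whole lists differed by less, 89922 and 94550 against 82621 and 83203. A site was called gained when both resistant and no parental library listed it, and lost in the reverse case. Of 69 sites in the window, 15 were gained (21.7%), where 9.79% of all 114302 sites were gained. Losses numbered 2 (2.9%), where 3.96% of all sites were lost. A further 27 sites were constant, called in all 4 libraries, and 25 were mixed. With lists of equal length 13 sites were gained and 3 were lost. No test was made of these calls, since 2 libraries against 2 cannot reach an exact two-sided p below 0.333.

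The start sites of the 3 genes were called in both parental libraries, so they could not be gained by this rule. Gained sites were spread over the window. 2 lay before PDGFRA, 1 in PDGFRA, 5 between PDGFRA and KIT, 1 in KIT and 6 between KIT and KDR, and none lay in KDR. Of the 27 constant sites, 7 lay between PDGFRA and KIT and 14 between KIT and KDR. The 10 gained sites with the highest smallest score are given here, by position. Before PDGFRA, chr4:55055363-55055657 scored 7.88 and 9.69 in the resistant libraries, and chr4:55084665-55085250 scored 19.5 and 22.9, the highest of all gained sites. The latter lies ahead of the PDGFRA start sites and close to chr4:55083723-55084451, which was called in all 20 libraries.

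Between PDGFRA and KIT, the gained site at chr4:55237439-55237808 scored 10.1 and 11.95. The site at chr4:55365534-55366021 scored 12.1 and 14.8 and has a weaker gained neighbour at chr4:55364810-55365179, with 6.20 and 8.70. A further site, chr4:55434390-55434769, scored 7.88 and 11.95. These are sites far from any of the 3 starts.

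Inside KIT, chr4:55527325-55528081 was the gained site nearest to a gene start, 3 kb from the centre of the KIT start site. It scored 8.70 and 10.2 in the resistant libraries, was uncalled in both parental libraries, and was also called in shp150_AP1 replicate 1. The KIT start site itself was constant. In WM983B this inner site was called in 1 of 2 parental and in 2 of 2 resistant libraries.

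Between KIT and KDR, the gained site at chr4:55745714-55746175 scored 18.7 and 14.3, and chr4:55825720-55826216 scored 9.62 and 13.3. The sites at chr4:55667203-55667768, with 8.97 and 13.1, and chr4:55801108-55801357, with 6.83 and 7.54, complete the 10. The other 4 gained sites, besides the neighbour already given, had smallest scores of 3.89 to 6.52. One constant site of this stretch, chr4:55622175-55622805, was singled out after its values were seen: it scored 15.7 and 8.7 in parental and 39.2 and 57.0 in resistant cells, without overlap.

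Both lost sites had low scores. At chr4:55993709-55994029, just beyond the KDR start site, the parental libraries scored 5.74 and 13.2 and the resistant lists had no call. At chr4:55166554-55166928, at the 3′ end of PDGFRA, the parental scores were 3.73 and 5.59. The count of losses was unstable, with 4 when 50% of a site had to be covered, 4 without resistant replicate 2, 5 without parental replicate 1 and 4 without parental replicate 2.

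Some of the gained sites were also called outside resistant 451Lu cells. Of the 15, 6 were called in both parental WM983B libraries, beside 41.1% of all 11191 sites gained in 451Lu, and 6 in both resistant WM983B libraries, beside 41.5%. These shares were close to the background. 6 of the 15 were called in no parental WM983B library. In 451Lu, 3 were called in both shp150_AP1 libraries, beside 26%, and 1 in both vector_NT libraries, beside 5.08%. The site at chr4:55825720-55826216 was called in both libraries of vector and of AP1, and the site at chr4:55391913-55392272 in both of NT and of vector_NT. The site at chr4:55434390-55434769 was called in both libraries of NT and in 1 each of vector_NT and shp150.

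**Figure D2:**
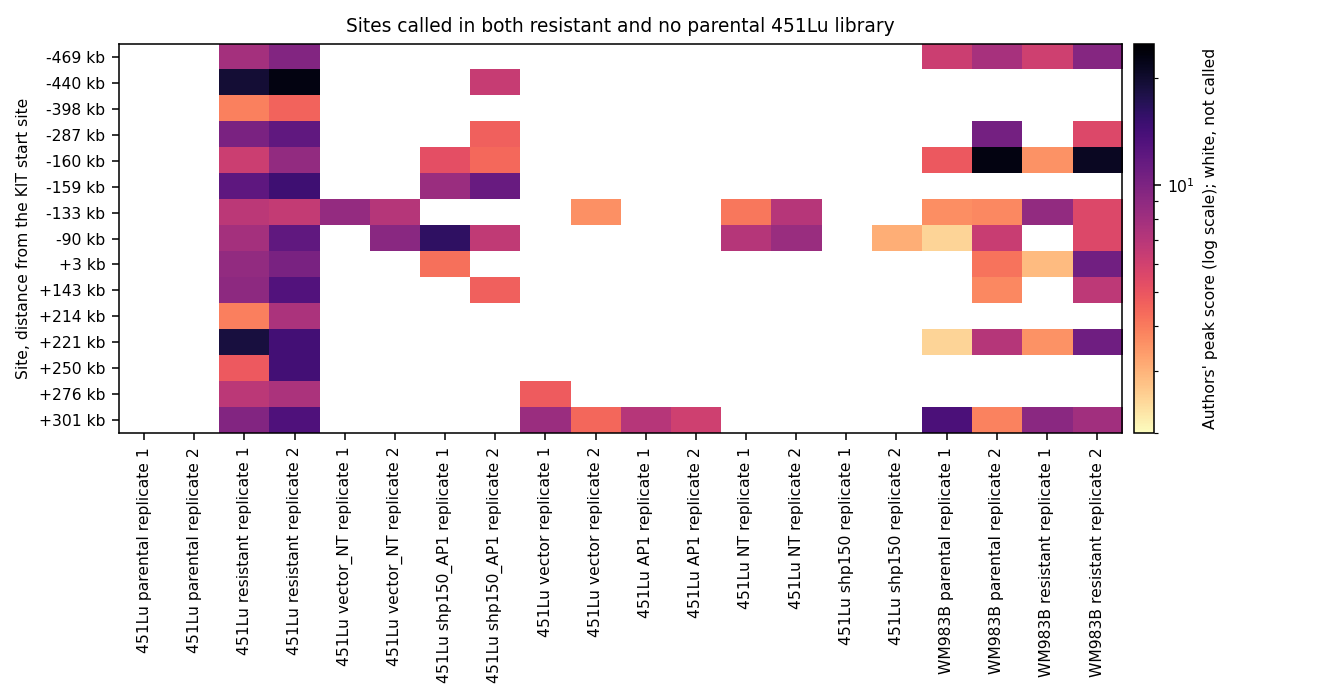
The 15 sites called in both resistant and no parental 451Lu library (rows, by distance in kb from the KIT start site) in all 20 ATAC-seq libraries (columns), with colour giving the authors' score on a log scale and white meaning not called. The row at +301 kb is filled in vector, AP1 and all 4 WM983B libraries, and the rows at -398, +214 and +250 kb are filled in resistant 451Lu alone.

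The comparison of shp150_AP1 with vector_NT addresses what AP-1 over-expression and the hairpin together do at the same sites in cells not labelled as resistant. In the window, shp150_AP1 gained 3 of 53 sites against vector_NT (5.66%), where 5.19% of all sites were gained, and lost 5 (9.43%), where 3.26% were lost. The gained share was near the background. Gains became 7 without shp150_AP1 replicate 1, 6 without shp150_AP1 replicate 2 and 1 with lists of equal length, and losses became 10 without vector_NT replicate 2.

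2 of the 3 gains were the neighbouring pair between PDGFRA and KIT that was also gained in resistant cells. At chr4:55365489-55366068 the shp150_AP1 libraries scored 8.33 and 11.4 and vector_NT had no call, and at chr4:55364785-55365176 they scored 5.22 and 4.43. So 2 of the 3 shp150_AP1 gains and 2 of the 15 resistant gains were shared. Over all sites the shared gains were 1769 of 5624 in shp150_AP1 and 1766 of 11191 in resistant cells. The third gain, chr4:55549904-55550165, lies inside KIT and scored 4.82 and 3.74. No loss was shared.

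The 5 sites lost in shp150_AP1 lay between PDGFRA and KIT (3), inside KIT (1) and between KIT and KDR (1). The highest smallest score was that of chr4:55827560-55827994, with 8.29 and 7.44 in the vector_NT libraries. The site at chr4:55391944-55392241 scored 8.63 and 7.12 in vector_NT and was uncalled in shp150_AP1, although the same site was among those gained in resistant cells, with 6.83 and 6.52. The site inside KIT, chr4:55580863-55581096, scored 7.57 and 4.82 in vector_NT. The other losses, chr4:55258728-55259028 and chr4:55189100-55189453, had smallest scores of 5.06 and 4.11.

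Few sites of the window were gained or lost with either single change, and these counts were near the background. AP1 gained none of 35 sites against vector, where 1.6% of all sites were gained, and lost 1, where 2.86% were lost. That site, chr4:55703897-55704741, scored 7.22 and 9.89 in the vector libraries. The hairpin against p150 alone gained none of 29 sites against NT, where 0.747% of all sites were gained, and lost 2, where 7.51% were lost. These were chr4:55899092-55899811, with 4.35 and 7.36 in NT, and chr4:55391841-55392151, with 4.10 and 7.04. The latter overlaps the site gained in resistant cells and lost in shp150_AP1. With lists of equal length the losses with shp150 were 0, so this loss was not called, and no test was made of these calls.

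In WM983B the comparison by label gave 2 gained sites of 87, where 1.47% of all sites were gained, and no lost site, where 1.22% were lost. The gained sites were chr4:55612116-55612233, scoring 5.16 and 4.73, and chr4:55707289-55707411, scoring 3.08 and 6.85. The first is the edge of chr4:55612116-55613054, a site called in all 20 libraries. That whole site scored 34.2 and 22.8 in parental and 31.8 and 35.1 in resistant WM983B, so this gain is a split piece of a constant site. By replicate number, 10 of the 87 sites were called in both second replicates and in neither first, and 5 in both first and neither second. These counts were higher than the 2 gained and no lost site by label. The shares by replicate number over all sites were not computed here, and the 87 sites include split pieces. Within replicate 1, 17 of 66 sites were called in resistant only and 15 in parental only, beside 20.4% and 18.3% of all sites. Within replicate 2 they were 14 and 11 of 69, beside 18.1% and 17.4%. In 451Lu the same counts were 23 and 6 of 62 for replicate 1, beside 20.1% and 13.2%, and 22 and 7 of 63 for replicate 2, beside 22.1% and 11.5%. Resistant-only calls thus outnumbered parental-only calls over all sites of 451Lu too, and the difference between the lines was not tested.

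H3K27ac lists gave a second view of active elements, with 1 library per group and hence no replicate check. The libraries used were replicate 1 in 451Lu and replicate 2 in WM983B, so line and replicate number cannot be told apart. In 451Lu the parental list held 10 and the resistant list 17 peaks in the window, and the whole lists held 32304 and 51710. Of 23 regions, 13 were listed in resistant cells only, where 50.3% of all regions were, and 6 in parental cells only, where 19.9% were. These shares were near the background. In WM983B the numbers ran the other way, 10 peaks in parental and 4 in resistant cells, beside whole lists of 50336 and 36022. There 2 of 12 regions were in resistant cells only, where 21.2% of all regions were, and 8 in parental cells only, where 43.8% were.

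Of the 13 resistant-only H3K27ac peaks in 451Lu, 4 lay within 1000 bp of a gained ATAC-seq site, beside 8.21% of all 32300 resistant-only peaks. The highest by score, chr4:55826150-55826647, scored 24.1 and overlapped the gained site at chr4:55825720-55826216 between KIT and KDR. It was also listed in resistant but not in parental WM983B, with a score of 4.56. The next, chr4:55528657-55529070 inside KIT, scored 19.5 and lay 575 bp from the gained site in KIT. In WM983B it was listed in both groups, with 4.05 in parental and 6.02 in resistant cells.

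Between PDGFRA and KIT, the resistant-only peak chr4:55366737-55367238 scored 15.7 and lay 715 bp from the stronger of the paired gained sites, which shp150_AP1 shared. Before PDGFRA, chr4:55083413-55083794 scored 11.0 and lay 870 bp from the highest gained site. Other resistant-only peaks with high scores had no gained site nearby. The peak chr4:55353277-55353688 scored 15.9 and its nearest ATAC-seq site of any library was 4101 bp away, and chr4:55324507-55325043 scored 12.7 near a site called only in WM983B parental replicate 2. Past KIT, chr4:55621781-55622335 scored 9.90 in resistant 451Lu, where the ATAC-seq site at chr4:55622175-55622805 had its highest scores. It was listed in both WM983B groups, with 11.2 and 8.62.

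Peaks listed in parental 451Lu only were chr4:55200384-55201308, with 9.64, chr4:55757048-55757415, with 8.62, chr4:55191502-55191821, with 5.91, and 3 with scores of 3.32 to 5.08. The first lies beside the constant ATAC-seq site with the highest score of the window. At the PDGFRA start the peaks were weak: chr4:55098689-55099012 scored 3.32 in parental 451Lu and 5.04 in resistant WM983B, and chr4:55099640-55099917 scored 3.18 in resistant 451Lu. 4 regions were shared by parental and resistant 451Lu. Among them chr4:55704876-55705371 scored 10.6 in parental and 4.36 in resistant cells, and chr4:55647020-55647427 scored 6.06 and 16.4.

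Most H3K27ac peaks lay within 1000 bp of an ATAC-seq site called in both libraries of the same group. In 451Lu this held for 7 of 10 parental peaks, beside 67.2% of the whole list, and for 11 of 17 resistant peaks, beside 59.6%. In WM983B it held for 7 of 10 parental peaks, beside 59.8%, and for 3 of 4 resistant peaks, beside 76.3%. These counts were near their backgrounds.

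**Figure D3:**
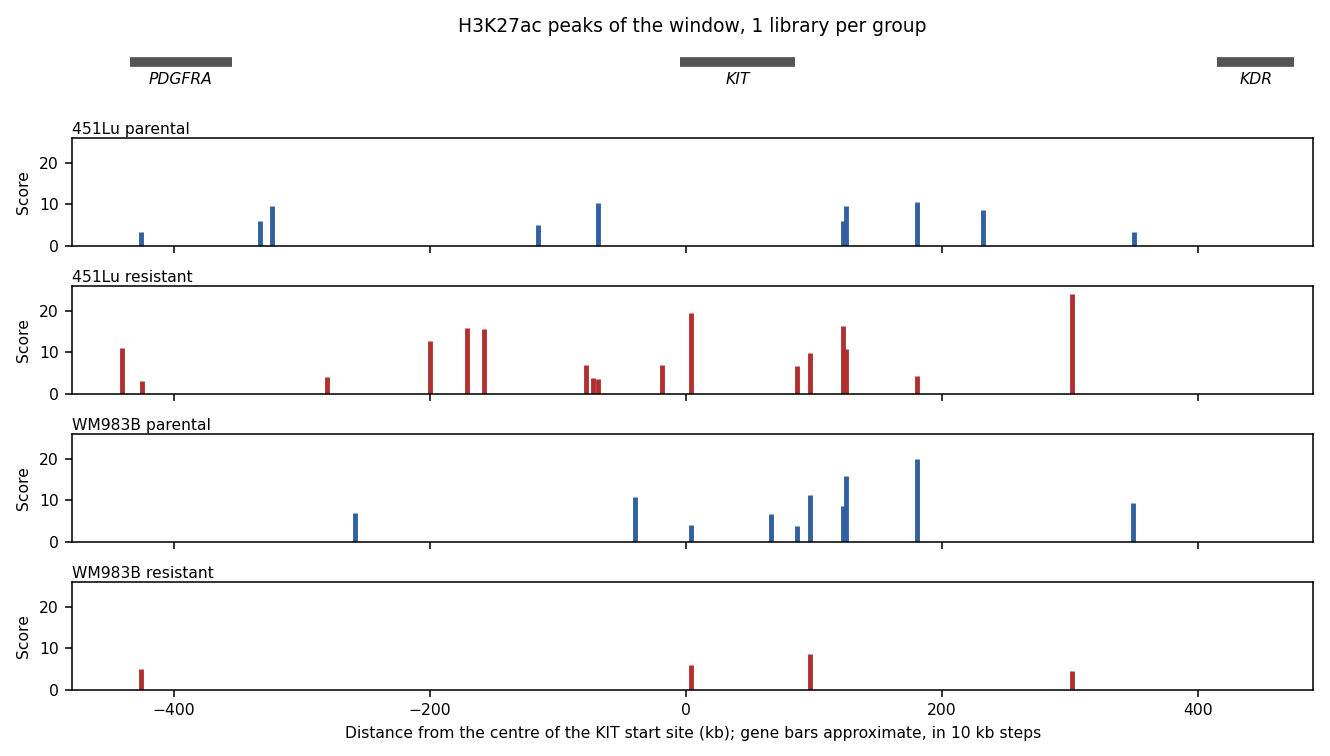
H3K27ac peaks of the window in parental and resistant cells of 451Lu and WM983B, 1 library each, by distance in kb from the KIT start site, with bar height giving the authors' peak score. Resistant 451Lu has its tallest bars, 24.1 and 19.5, between KIT and KDR and inside KIT, where parental 451Lu has none. No bar stands over KDR.

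Listed H3K9me3 islands covered less of the window in resistant than in parental 451Lu. The parental libraries had 40 and 50 islands over 163.2 and 200.2 kb, and the resistant libraries 17 and 27 islands over 81.0 and 92.0 kb. The groups did not overlap. The means were 181.7 ± 26.2 kb in parental and 86.5 ± 7.78 kb in resistant cells (SD, n = 2 each), a difference of -95.2 kb, with an exact two-sided permutation p of 0.333, the smallest that 2 libraries against 2 allow. Resistant coverage was 47.6% of parental coverage in the window and 83.6% over all islands, where the means were 278 and 332 Mb.

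For shp150_AP1 against vector_NT the same measure gave 89.4 and 118.6 kb against 243.4 and 249.8 kb. The means were 104.0 ± 20.6 kb and 246.6 ± 4.53 kb (SD, n = 2 each), a difference of -142.6 kb with the same exact permutation p of 0.333. Coverage was 42.2% of that in vector_NT in the window and 75.6% over all islands. With each list held to the islands of highest fold up to the shortest list, an alternative added after the data were seen, coverage was 145.2 and 118.6 kb in parental against 81.0 and 87.2 kb in resistant cells. The same alternative gave 165.0 and 202.4 kb in vector_NT against 86.6 and 118.6 kb in shp150_AP1 cells.

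The islands of the window rest on 3393 to 15865 ChIP reads per library, against 2464 to 6433 input reads. For shp150_AP1 only replicate 2 has an input sample of its own label. Which input stands behind the values of shp150_AP1 replicate 1 was not given. ChIP reads over all islands ran from 11.5 M to 31.1 M, and the vector_NT libraries, with 31.1 M and 21.8 M, had the most. Input reads per kb of island were 24.0 to 31.3 in the window and 32.3 to 46.1 over all islands, a ratio of 0.669 to 0.751. This ratio was 0.694 and 0.721 in parental, 0.688 and 0.676 in resistant, 0.743 and 0.751 in vector_NT and 0.669 and 0.684 in shp150_AP1 libraries. Its part in the coverage differences was not tested.

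By segment, islands over KIT were listed in all 4 control libraries and in 1 of the 4 resistant or shp150_AP1 libraries. They covered 6.4 and 15.6 kb in the parental and 0 and 0 kb in the resistant libraries, and 11.8 and 15.6 kb in vector_NT against 1.6 and 0 kb in shp150_AP1. Over PDGFRA the cover was listed in every library, with 19 and 23.2 kb in parental and 15.4 and 15.8 kb in resistant cells, and 31.4 and 33.6 kb in vector_NT against 13.4 and 18.4 kb in shp150_AP1. KDR had no island in parental, resistant or shp150_AP1 libraries, and vector_NT replicate 1 had 1 of 1.8 kb at its start. Between KIT and KDR the cover was 72.8 and 93.0 kb in parental and 37.6 and 38.6 kb in resistant cells. Between PDGFRA and KIT it was 57.8 and 66.0 kb in parental and 28.0 and 37.6 kb in resistant cells.

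Counted as regions, 12 of 57 were lost in resistant cells (21.1%), where 17.7% of all regions were lost, and none was gained, where 3.06% were. The lost share was near the background. Against vector_NT, shp150_AP1 lost 15 of 69 regions (21.7%), where 13.8% of all were lost, and gained none, where 1.87% were gained. With lists of equal length the losses were 4 and 7. The 12 losses became 19 without resistant replicate 2 and 25 without parental replicate 1, and the 15 became 25 without shp150_AP1 replicate 1 and 32 without vector_NT replicate 2.

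Lost regions in resistant cells with the highest fold of ChIP over input, the authors' value, were chr4:55916601-55920000 (2.91 and 2.67 in the parental libraries), chr4:55670601-55675400 (3.02 and 2.31) and chr4:55495401-55500600 (2.31 and 2.82). The last lies 5′ of KIT, and 2 further losses lay inside KIT, at chr4:55538601-55541400 and chr4:55596201-55603400. In shp150_AP1 the highest were chr4:55608201-55611400 at the 3′ end of KIT (2.63 and 2.84 in vector_NT), chr4:55538201-55540600 inside KIT (2.46 and 2.80) and chr4:55859401-55861800 between KIT and KDR (2.39 and 3.38).

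Other islands were listed in every library. In the 3′ part of PDGFRA an island started between 55147201 and 55148601 in all 8 libraries, with folds of 2.57 and 2.37 in parental, 1.92 and 2.18 in resistant, 2.82 and 2.32 in vector_NT and 3.54 and 2.25 in shp150_AP1 cells. Between KIT and KDR, on the 3′ side of KDR, an island starting between 55905401 and 55907201 had folds of 3.49 and 4.49 in parental and 2.498 and 4.28 in resistant cells.

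Overlaps between open sites and islands were counted in the window and over all sites. 1 of the 15 gained ATAC-seq sites met an island of either parental library, beside 15.4% of all gained sites, and 2 met an island of either resistant library, beside 14.3%. Of the 27 constant sites, 2 met a parental island, beside 8.17% of all constant sites, and 2 a resistant one, beside 9.76%. Counts of 1 or 2 sites are too few to be told apart from these shares. Over all 20 ATAC-seq libraries, 26 of the 88 sites met an island in at least 1 of the 8 H3K9me3 libraries. The share of all merged sites that did so was not computed here.

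**Figure D4:**
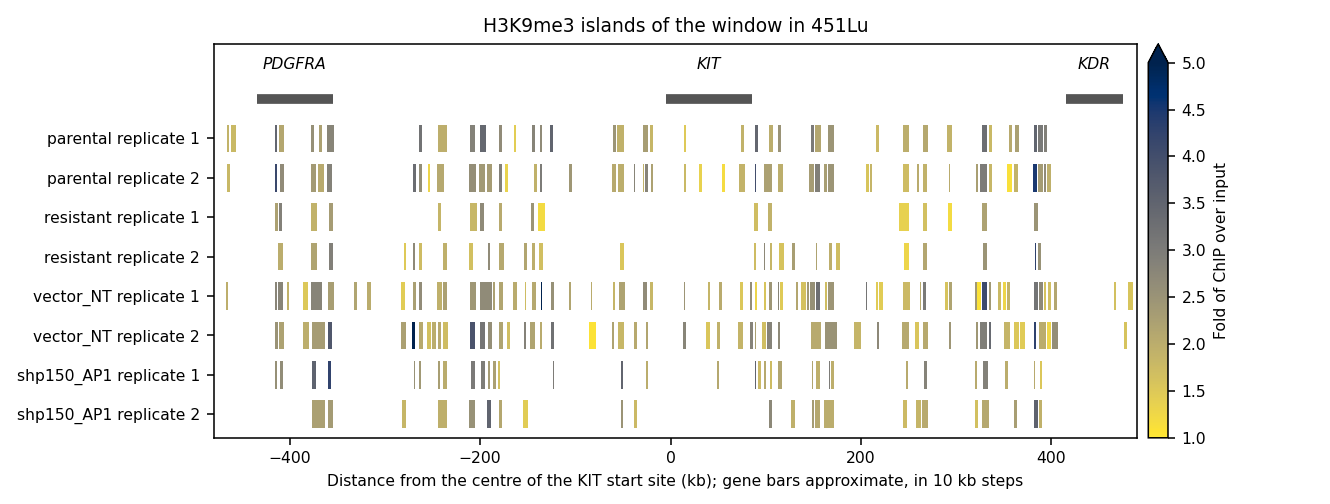
H3K9me3 islands of the window in the 8 libraries of 451Lu (rows), by distance in kb from the KIT start site, with colour giving the fold of ChIP over input. Over KIT the rows of both resistant libraries are empty, and the islands in the 3′ part of PDGFRA appear in all 8 rows.

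**Figure D5:**
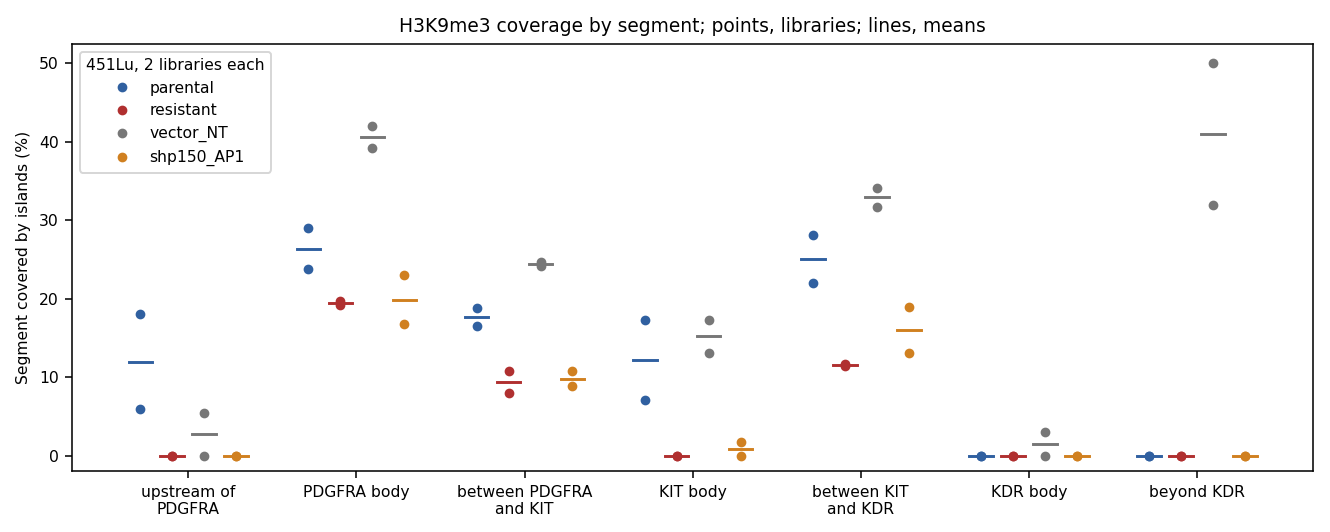
Percent of each segment covered by H3K9me3 islands in 451Lu, with points for libraries and lines for means of 2. Resistant libraries lie below parental ones in the PDGFRA and KIT segments and in both stretches between genes, and shp150_AP1 lies below vector_NT in the same segments.

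The authors' deposited RRR table, whose name is not explained and whose direction is not stated, held 2 intervals that overlap the window, at either end of it. In the authors' deposited table the interval printed as 55 to 55.16 Mb had a log2 fold change of 1.97 (standard error 0.36, adjusted p 8.1e-08). It starts before PDGFRA and, with its last 20 kb step, ends at 55.18 Mb, past the approximate PDGFRA segment. The interval printed as 55.86 to 55.98 Mb had a log2 fold change of -4.19 (standard error 0.37, adjusted p 5.7e-29) in the same deposited table. With its last step it ends at 56 Mb and spans the approximate KDR segment. The 2 ends thus carried opposite signs. Over the 1848 intervals of the authors' deposited table, 33.2% had a positive and 41.2% a negative value with an adjusted p under 0.05, and the KDR interval ranked 50th from the most negative. No interval covered KIT.

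The PDGFRA interval starts at 55 Mb, before the window, so its counts include regions outside the window. Within it, taken to the end of its last 20 kb step, resistant 451Lu gained 4 and lost 1 of 12 ATAC-seq sites. Of the gains inside the window, 2 lay before PDGFRA and 1 in it. Within the KDR interval resistant 451Lu gained none and lost 1 of 11. Over all sites 9.79% were gained and 3.96% lost. H3K9me3 islands covered 29.2 and 31.8 kb of the PDGFRA interval in parental and 16.6 and 18.8 kb in resistant cells. In the KDR interval they covered 21.2 and 27.6 kb in parental and 4.4 and 4.4 kb in resistant cells. H3K9me3 cover was thus lower in resistant cells in both, whereas the table's signs differ. H3K27ac had 1 peak in parental and 4 in resistant cells in the PDGFRA interval, and 1 and 0 in the KDR interval. Of the 4, the window held 1 before PDGFRA and 1 in it.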

How the data were processed

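ATAC-seq, H3K27ac and H3K9me3 libraries of 451Lu and WM983B were used, 32 of 47 samples. Build hg19 and the tools MACS2, SICER, Bowtie2, Picard, deepTools and STAR 2.5.3 come from the submitters' processing notes. Which tool made which file, read trimming and any Tn5 shift were not given in the sources used here. Per library, the authors deposited 1 peak list with a score per peak. The deposited H3K9me3 island files hold read counts of ChIP and input, their ratio as a fold, a p-value and a false discovery rate. The authors' deposited RRR table holds a mean signal, log2 fold changes, a test score and p-values. Its intervals lie on a 20 kb grid, so each was extended by 1 step beyond its printed end.

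Lists of a comparison were merged on chromosomes 1 to 22 and X, and a call in a library needed it to cover at least 1 bp of the region. Gained means both treated and no control library, lost the reverse. Kb covered was compared by an exact two-sided permutation test. Segments were assigned by midpoint in 10 kb steps. Named regions were up to 10 per direction, by smallest score over the calling libraries, for resistant against parental 451Lu and for shp150_AP1, and up to 3 elsewhere. Calling was tested on simulated data. Alternatives were a score of at least 5 (islands: false discovery rate at most 0.01), equal list lengths, 50% of a region covered, leaving out each replicate, and the replicate block. The members and lists were chosen with earlier results of these data known. Planned lists of pathway genes and cell type markers needed an annotation of hg19 and were not used here. Python 3.11.15, numpy 2.4.6, pandas 2.3.3 and scipy 1.17.1 were used.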

Additional observations from a re-analysis of the deposited data

Results flagged for a closer look

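The number of listed H3K27ac peaks in the window differed in opposite directions in the 2 cell lines. The resistant list held 7 more peaks in the window than the parental list in 451Lu (17 against 10), and the WM983B difference was -6 (4 against 10). The whole lists differed in the same directions, 51710 against 32304 and 36022 against 50336. The window's share of all bases covered by peaks was 0.0300% in resistant and 0.0305% in parental 451Lu, and 0.00812% and 0.0205% in WM983B. With lists of equal length, 10 regions were in resistant and 8 in parental 451Lu only. A region starting at 55098689, at the PDGFRA start, was listed in parental but not resistant 451Lu and in resistant but not parental WM983B. A region starting at 55611587, at the 3′ side of KIT, was listed in resistant but not parental 451Lu, with a score of 6.64, and in parental but not resistant WM983B, with 3.72. With 1 library per group, replicate 1 in 451Lu and replicate 2 in WM983B, the difference between the lines was not tested. Groups of 2 libraries are too small to look for a single library that stands apart.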

How the results depend on the processing

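Of 138 recomputed values, none reversed, but counts cannot change sign, so only the differences in H3K9me3 cover could have reversed. 43 counts moved by more than 1.5 times, or to or from 0, and the other 95 values were counts within that limit or differences in H3K9me3 cover that kept their direction. Gained ATAC-seq sites in resistant 451Lu stayed at 13 to 19. Requiring 50% of a region gave 4 lost sites in 451Lu, 2 lost in WM983B and 1 lost with shp150. A score of at least 5 gave 1 gained site in WM983B and, for shp150_AP1, 1 gained and 3 lost. Lists of equal length gave 0 lost sites with shp150, 1 gained with shp150_AP1, and 4 lost H3K9me3 regions in resistant and 7 in shp150_AP1 cells.

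Leaving out 1 replicate each gave 3 to 5 lost sites in 451Lu, 3 to 10 gained and 3 to 9 lost in WM983B, 0 to 3 gained and 2 to 4 lost with AP1, 0 to 3 gained and 4 to 6 lost with shp150, and 4 to 7 gained and 5 to 10 lost with shp150_AP1. For H3K9me3 it gave 0 to 4 gained and 15 to 25 lost regions in resistant cells and 0 to 1 gained and 17 to 32 lost in shp150_AP1. The H3K9me3 cover difference ranged from -113.7 to -76.7 kb for resistant and from -157.2 to -128 kb for shp150_AP1 cells, and with equal list lengths it was -47.8 and -81.1 kb. Each count with a single library in 1 group has a looser call rule, so more regions can pass.

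With the replicate block, pairing libraries of the same number, the counts were those reported by construction, 15 gained in resistant 451Lu, and the mean paired differences in cover were -95.2 and -142.6 kb. The numbers are shared labels only, since no label says that they mark a shared culture or day. Peak lists carry no depth, so an absent call limits every count.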
